A study of Caenorhabditis elegans with 15 samples.

Results

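Among the 5 RNA-seq libraries of fndc-1 mutant worms, libraries 1, 2 and 3 form one set and libraries 4 and 5 another, and the description below covers these 5 of the 15 libraries of the series. The sets were chosen by the read counts themselves: after the counts had been seen, libraries were placed together where they differed less from each other than from the rest. No label names a treatment, date or batch that separates them. Every difference between the sets is therefore given as a description, with no test. The series holds mRNA-seq of intact nematodes (Caenorhabditis elegans) at adult day 1, from 3 strains with 5 libraries each. The strains were the laboratory wild type N2, the single mutant fndc-1(rny14), and the double mutant atfs-1(tm4525);fndc-1(rny14), which carries the same fndc-1 allele. All were synchronized populations kept under standard conditions without stress. The labels call the samples biological but do not describe separate cultures, so the spread between libraries of a strain may be partly technical.

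FNDC-1 is a receptor on the outer mitochondrial membrane that links damaged mitochondria to the autophagy machinery. ATFS-1 switches on the mitochondrial unfolded protein response. A pool of whole adult hermaphrodites mixes RNA of the skin (hypodermis), gut, muscle, nerve, germline and of embryos held in the uterus. Many small heat shock proteins bind unfolded proteins, and some, but not all, are induced by stress. The main cytosolic Hsp70 and Hsp90 chaperones and their co-chaperones are also made without stress. Cuticle collagens are switched on in waves with each moult, and sperm genes are transcribed at the end of larval life, before the germline turns to oocytes. In such bulk samples, fewer cells of a type and less RNA per cell cannot be told apart.

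Transcript levels are given as CPM, read counts scaled to library size, with TMM factors (trimmed mean of M values) between libraries. Libraries 1, 2 and 3 held 47988588, 47351984 and 47468505 counts, and libraries 4 and 5 held 58203337 and 54048079. Depth thus separated the sets too, and its part in the differences was not tested. The median absolute log2 ratio over 15032 genes was 0.0933 to 0.107 for the 3 library pairs within libraries 1 to 3 and 0.110 between libraries 4 and 5. It was 0.247 to 0.278 for the 6 pairs that cross the sets. Between 3371 and 3983 genes differed by more than 1.5-fold in a crossing pair, against 1186 to 1629 in a pair within libraries 1 to 3 and 2347 between libraries 4 and 5. Distances as large as the crossing ones also occurred in wild type, where the 10 pairs ran from 0.115 to 0.276, and the double mutant reached 0.592. In a principal component analysis of the 5 libraries, the first component held 67.13% of the variance. Libraries 1, 2 and 3 lay on it at 16.4, 39.45 and 32.67, and libraries 4 and 5 at -62.36 and -26.17. The second component, with 17.28%, placed library 4 at 19.63 and library 5 at -35.94, so libraries 4 and 5 were not alike in all genes.

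**Figure D1:**
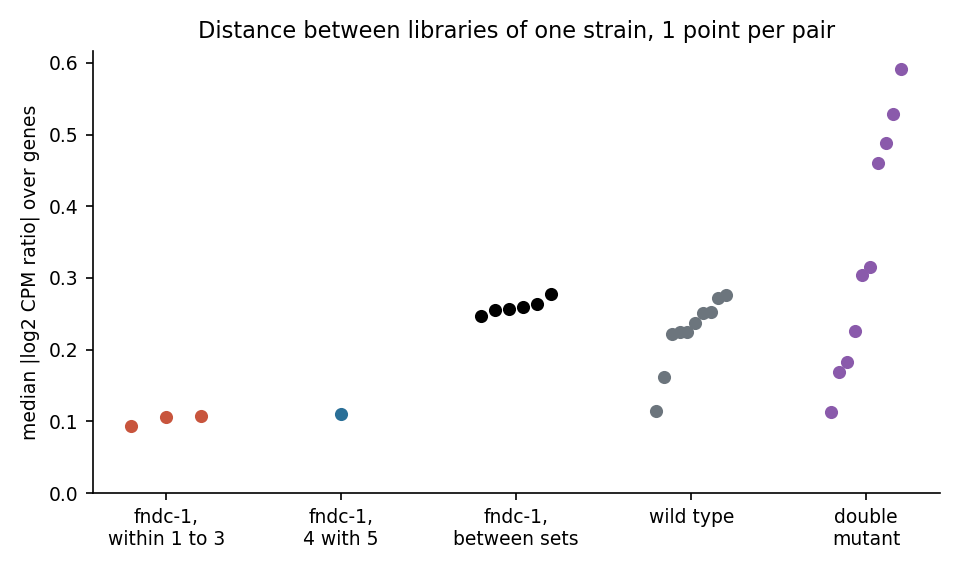
Median absolute log2 CPM ratio over 15032 genes for each pair of libraries of the same strain (1 point per pair, y axis in log2 units). The 6 pairs that cross the fndc-1 sets lie at 0.247 to 0.278, above the 4 pairs within sets and at the upper end of the wild-type pairs.

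The transcript of the mutated gene did not follow the sets. The gene fndc-1 (chromosome II, 11236624 to 11237325) stood at 7.38, 7.52 and 7.26 CPM in libraries 1, 2 and 3 and at 7.26 and 7.53 CPM in libraries 4 and 5. The sets overlapped, and every fndc-1 library lay far below the 36.8 to 47.2 CPM of wild type. Against wild type its log2 difference was -2.47 (SE 0.11, adjusted p = 1.86e-09, edgeR quasi-likelihood test).

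For each gene, the gap between the sets was measured from the lowest library of the higher set to the highest library of the lower set, in log2 CPM with a prior count of 2. No overlap between the sets was seen for 9999 of 15032 genes, which is 66.5%. Of these, 4907 (32.6%) were higher in libraries 1 to 3 and 5092 (33.9%) were higher in libraries 4 and 5. A gap of at least 1.5-fold was found for 1199 genes (7.98%), of which 937 (6.23%) were higher in libraries 1 to 3 and 262 (1.74%) were higher in libraries 4 and 5. These shares are the background against which each gene list is read. They depend on the scaling: with total counts alone, 6165 genes without overlap were higher in libraries 1 to 3 and 3189 in libraries 4 and 5, because the median log2 difference of all genes was 0.087 under that scaling and -0.01 under TMM. The 1.5-fold genes split 1247 to 187 with total counts and 884 to 296 with relative log expression factors. They also change with the libraries. Without library 1 the 1.5-fold genes were 1169 and 702, and without library 4 they were 1626 and 305. Without library 5 they were 1397 and 1347. By the definition of the gap, on the same scaling, counts in either direction can only stay or rise when a library is left out. The same holds for the gene lists below, so such a rise is not a result in itself.

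Genes apart by 1.5-fold were mostly low in these worms. The 937 genes higher in libraries 1 to 3 had a median of 3.19 CPM over the 5 libraries, and the 262 genes higher in libraries 4 and 5 had a median of 0.693 CPM, against 9.09 CPM for all genes tested. Of the 262 genes, 155 lay under 1 CPM. Among genes at 100 CPM or more, 1.53% were apart and higher in libraries 1 to 3 and 0.139% were apart and higher in libraries 4 and 5. The X chromosome held 20.38% of the 937 genes and 6.49% of the 262, against 14.25% of all genes tested. Chromosome IV held 24.81% of the 262 genes against 16.94% of all.

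**Figure D2:**
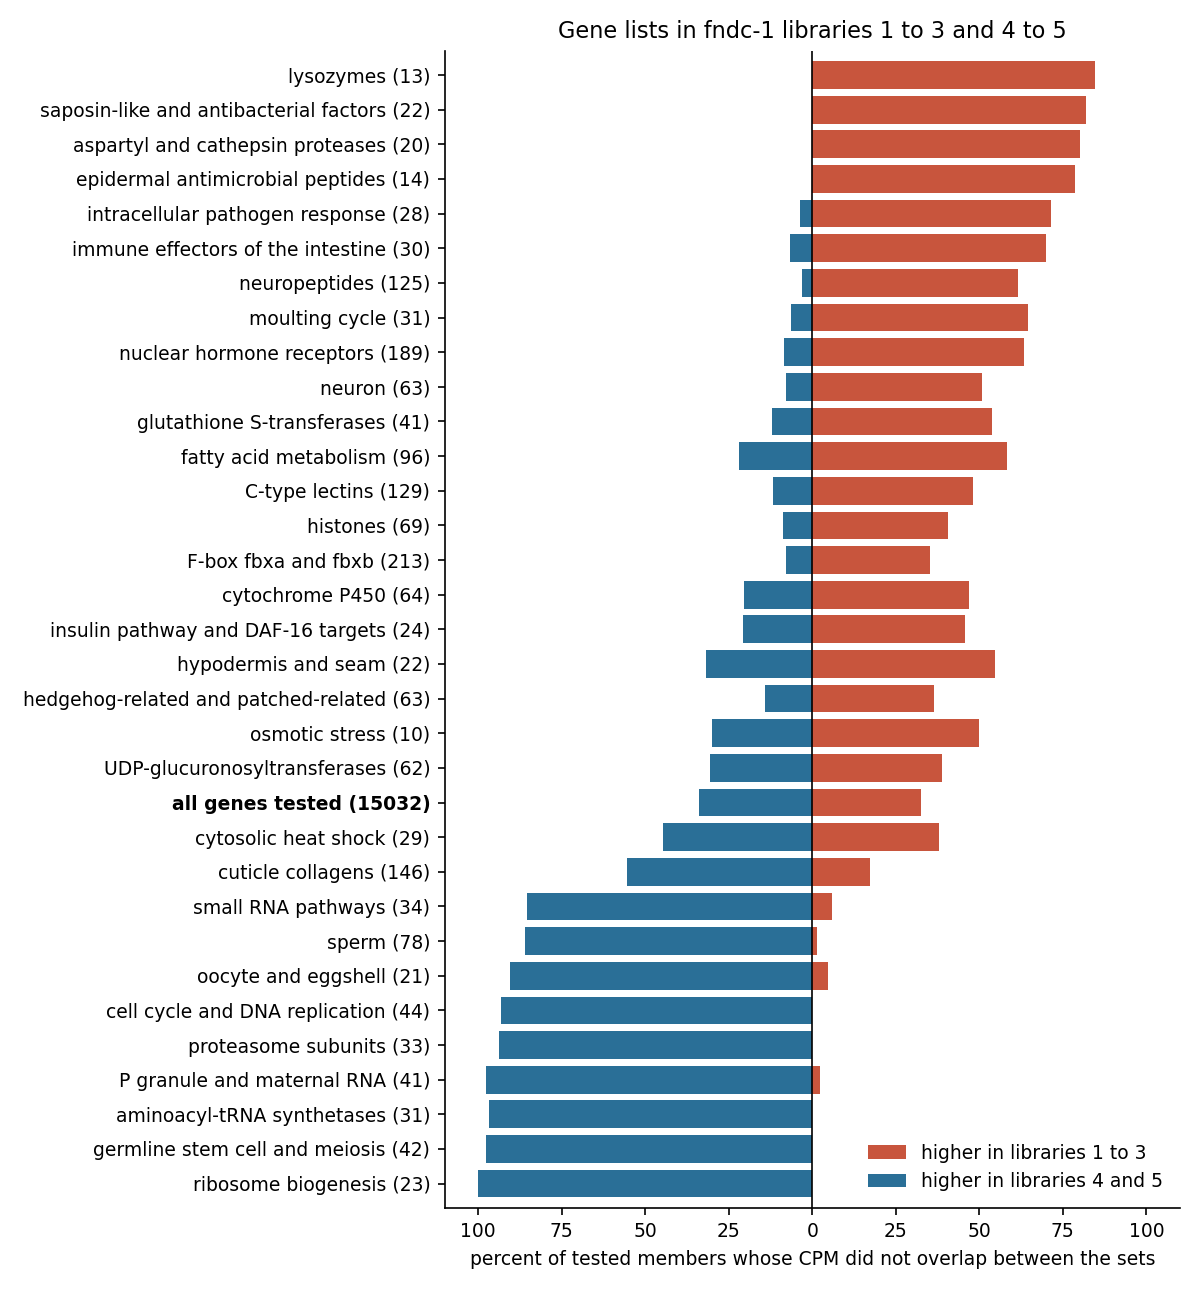
Percent of the tested members of each gene list (number in brackets) whose CPM did not overlap between the sets, to the right where libraries 1 to 3 were higher and to the left where libraries 4 and 5 were higher. All genes tested (bold) lie at 32.6% and 33.9%, while lists of host defence reach to the right and lists of germline and protein synthesis to the left.

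The widest gaps toward libraries 1 to 3 were taken among named genes with at least 5 CPM in each library of the higher set. They included several genes of embryonic and larval development. The list of embryo zygotic genes did not share such gaps, as none of its 27 tested members was apart by 1.5-fold. Of them, 8 (29.63%) were higher in libraries 1 to 3 without overlap, against 32.6% of all genes. Another 1 (3.70%) was higher in libraries 4 and 5, against 33.9% of all genes, and 18 overlapped. The gene hch-1 (chromosome X, 14696411 to 14699977), which encodes a secreted protease needed for hatching, stood at 22, 28.1 and 21.9 CPM in libraries 1 to 3 and at 3.34 and 7.28 CPM in libraries 4 and 5. The gene hbl-1, a hunchback-like transcription factor that times larval cell fates, stood at 47.8, 54.5 and 47.1 CPM against 13.8 and 17.4 CPM. The zinc finger factor gene egl-46, which acts in neuron differentiation, stood at 8.58, 10.7 and 8.46 CPM against 1.71 and 2.58 CPM. Libraries 1 to 3 lay close together in each of these genes, and both other libraries lay below wild type's highest value. The bZIP factor gene atf-2 had 8.28, 11.3 and 10.4 CPM against 2.18 and 2.99 CPM. The intermediate filament gene ifa-3 had 8.95, 12 and 9.44 CPM against 1.77 and 2.54 CPM. The linker histone-like gene hil-7 had 15.1, 21.8 and 15.9 CPM against 2.92 and 4.81 CPM. The collagen genes col-121 and dpy-14 showed the same order, dpy-14 with 91.2, 123 and 90.3 CPM against 16.6 and 31.4 CPM. The other genes with the widest gaps were valv-1, pqn-73, math-45 and nspc-17, with gaps of 1.52 to 1.84 in log2. For valv-1 the values were 13.5, 13.1 and 13.8 CPM against 3.64 and 3.2 CPM, with wild type between the sets at 6.21 to 8.58 CPM.

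The widest gaps toward libraries 4 and 5 were almost all in cuticle collagens, 11 of the 12 genes. The collagen gene dpy-13, which shapes the body, stood at 2.77, 2.17 and 2.05 CPM in libraries 1 to 3 and at 28.4 and 6.62 CPM in libraries 4 and 5. The gene dpy-4, another body-shape collagen, had 2.66, 2.0 and 1.95 CPM against 29.4 and 6.25 CPM. The gene col-7 had 7.12, 2.1 and 3.52 CPM against 52.6 and 16.6 CPM. In all 3 genes library 4 stood far above library 5, which itself stood above libraries 1 to 3. The same held for col-71, col-73, col-63, col-149, col-138, rol-1, col-117 and col-161, whose gaps were 0.95 to 1.41 in log2. The exception to the collagens was cyp-35A4, a cytochrome P450 gene of the detoxification class, where libraries 4 and 5 lay together at 12.3 and 11.4 CPM against 4.51, 5.33 and 4.82 CPM.

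**Figure D3:**
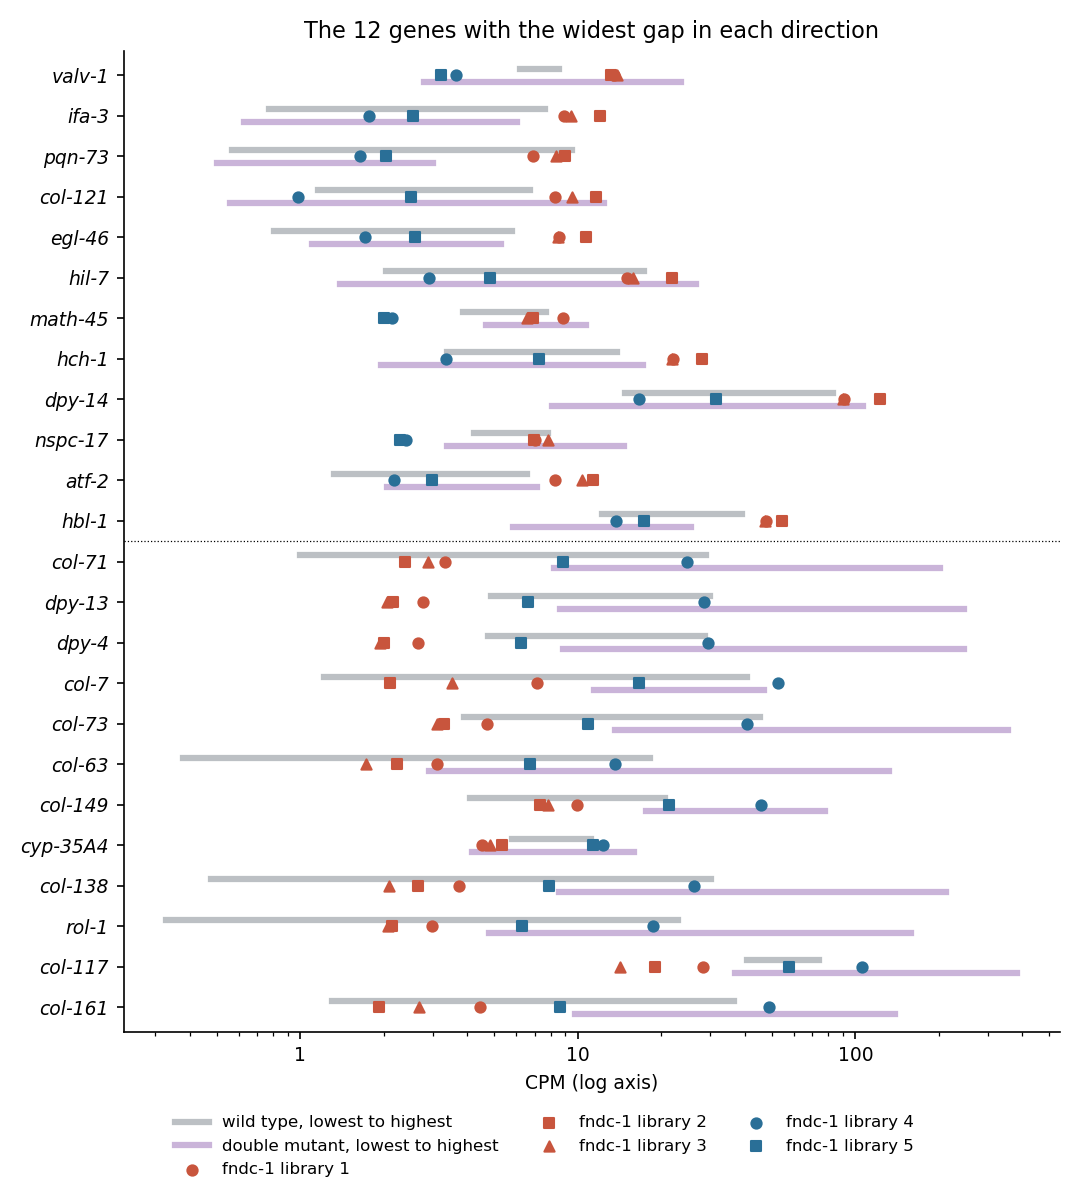
CPM (log axis) of the 12 named genes with the widest gap in each direction in the 5 fndc-1 libraries (points), with the lowest to highest value of the 5 wild-type and 5 double-mutant libraries (bars). Above the dotted line libraries 1 to 3 (red) are higher, and below it libraries 4 and 5 (blue) are higher, with library 4 above library 5 in all 12.

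Heat shock genes went both ways. Of 29 cytosolic heat shock genes, 11 (37.93%) were higher in libraries 1 to 3 without overlap and 13 (44.83%) were higher in libraries 4 and 5. All genes also went both ways, at 32.6% and 33.9%, and the list's median difference was close to 0. A 1.5-fold gap was found for 7 members (24.14%) toward libraries 1 to 3, against 6.23% of all genes. Toward libraries 4 and 5 it was found for 1 member (3.45%), against 1.74% of all genes. A division by protein family was noticed after the values were seen. Of 12 genes of small heat shock proteins in the list, 10 were higher in libraries 1 to 3, namely the 6 hsp-16 genes, hsp-12.3, hsp-17, hsp-25 and hsp-43, while hsp-12.6 overlapped and sip-1 was higher in libraries 4 and 5. The gene hsp-17 (chromosome V, 8384799 to 8385929) stood at 33.4, 34 and 38.5 CPM against 17.5 and 16.1 CPM. The gene hsp-16.11 stood at 5.67, 5.57 and 4.97 CPM against 1.21 and 2.44 CPM, and hsp-16.41 at 0.468, 0.481 and 0.497 CPM against 0.211 and 0.097 CPM. All 3 encode small heat shock proteins of the alpha-crystallin type, and in each the sets did not overlap. The hsp-16 genes have near-identical copies, so the division of reads among them is uncertain. The small heat shock gene hsp-43 stood at 136, 140 and 141 CPM against 68.4 and 71.6 CPM. Wild type ranged from 63.8 to 90.4 CPM for hsp-43 and from 0.23 to 1.13 CPM for hsp-16.11, so libraries 1 to 3 lay above wild type in both genes and libraries 4 and 5 did so in hsp-16.11.

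Most of the remaining heat shock genes lay on the other side, by less. Of the 17 members that are not small heat shock genes, 12 were higher in libraries 4 and 5 without overlap, 1 was higher in libraries 1 to 3 and 4 overlapped (bag-1, hsb-1, F44E5.4 and F44E5.5). The exception, the BAG-domain co-chaperone gene unc-23, stood at 25.4, 24.5 and 27 CPM in libraries 1 to 3 and at 21.1 and 19.9 CPM in libraries 4 and 5. The Hsp70 gene hsp-1 stood at 3565, 3454 and 3687 CPM in libraries 1 to 3 and at 4552 and 4732 CPM in libraries 4 and 5. The Hsp90 gene hsp-90 stood at 3370.0, 3270.0 and 3329 CPM against 4050.0 and 4253 CPM. The nucleotide exchange factor gene hsp-110 stood at 544, 516 and 540 CPM against 682 and 708 CPM. In these genes the sets did not overlap, and the median log2 difference over the 6 crossing pairs was -0.38, -0.32 and -0.39. The co-chaperone genes sti-1, cdc-37, dnj-12, dnj-13 and dnj-19 were higher in libraries 4 and 5 as well, with medians of -0.34 to -0.23. The inducible gene hsp-70, at 0.346, 0.361 and 0.310 CPM against 0.844 and 0.582 CPM, was the only member of the list with a 1.5-fold gap toward libraries 4 and 5. It was therefore opposite to the hsp-16 genes, although both are induced by heat. The genes named here other than hsp-17, hsp-16.11 and hsp-16.41 were singled out after their values were seen.

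**Figure D4:**
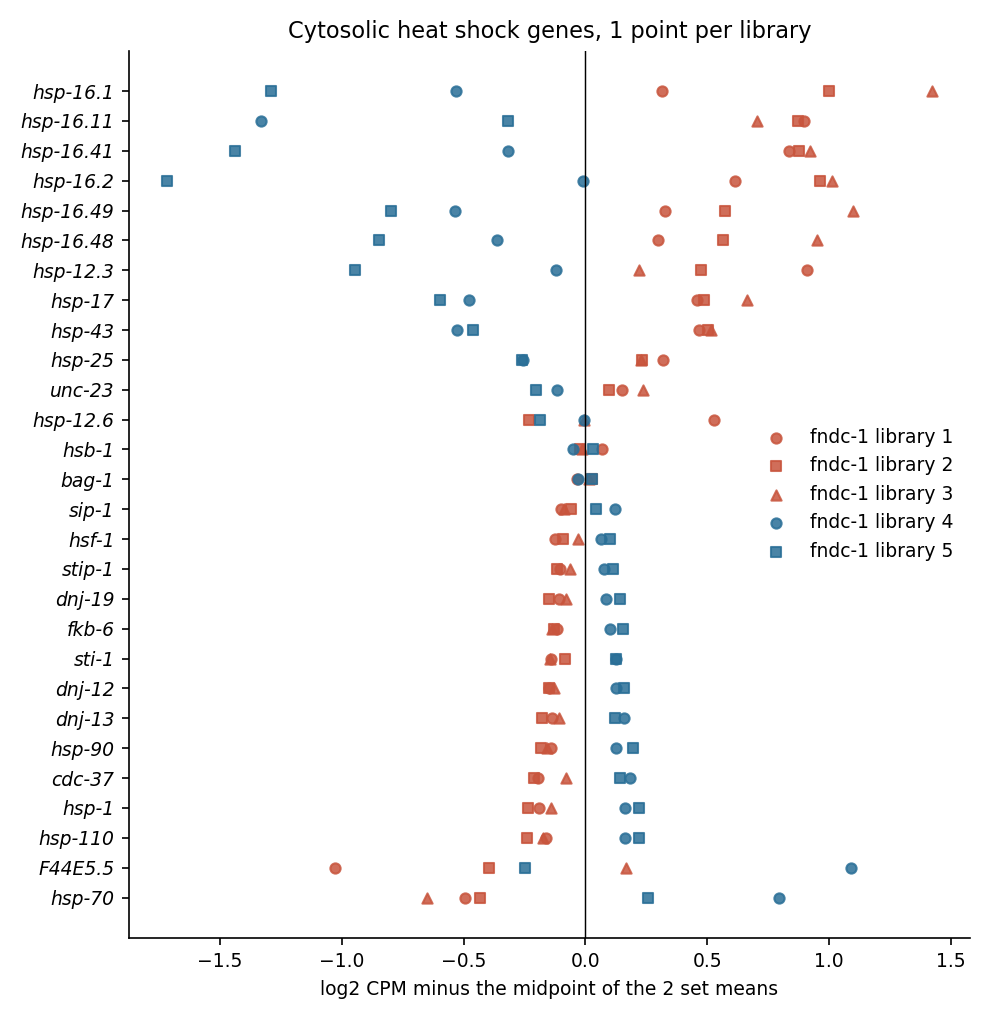
Log2 CPM of 28 cytosolic heat shock genes in the 5 fndc-1 libraries, centred on the midpoint of the set means, ordered by the median difference between the sets. F44E5.4, with no count in library 4, is left out. Small heat shock genes at the top are higher in libraries 1 to 3 (red), and most other members, below the middle, are slightly higher in libraries 4 and 5 (blue).

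Genes of host defence were mostly higher in libraries 1 to 3. Of 22 saposin-like and antibacterial factors, which make pores in bacterial membranes, 18 were higher in libraries 1 to 3 without overlap, none was higher in libraries 4 and 5, and 10 were apart by 1.5-fold. The gene spp-15 stood at 31.5, 34.3 and 34.4 CPM against 16.7 and 16.3 CPM, and spp-4 at 57.1, 56.5 and 53.5 CPM against 29.5 and 29.2 CPM. Both sets were tight and far apart in these genes. Of 30 immune effectors of the gut, 21 were higher in libraries 1 to 3 and 2 in libraries 4 and 5. Among them dod-23 stood at 164, 148 and 145 CPM against 63.5 and 72.7 CPM, and the infection response gene irg-2 at 3.54, 3.91 and 4.22 CPM against 1.41 and 1.11 CPM. Wild type lay between the sets in dod-23, at 97.8 to 105 CPM. Of 13 lysozyme genes, 11 were higher in libraries 1 to 3 and none in libraries 4 and 5. Of 14 epidermal antimicrobial peptides, 11 were higher in libraries 1 to 3 and none in libraries 4 and 5. The peptide gene nlp-28 of that list stood at 20.9, 19.9 and 20.9 CPM against 9.19 and 9.12 CPM, where wild type was higher than both sets at 22 to 31.9 CPM. The caenacin gene cnc-2 had 1.44, 2.46 and 3.08 CPM against 0.369 and 0.349 CPM. Without library 5, 7 immune effectors were higher in library 4 than in libraries 1 to 3, in place of 2.

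The intracellular pathogen response, a set of genes switched on by microsporidia and virus infection and by blocked proteasomes, had 20 of 28 tested members higher in libraries 1 to 3 and 1 in libraries 4 and 5, with a median log2 difference of 0.58. Levels were low: eol-1, a homolog of the decapping exonuclease DXO, stood at 1.06, 0.882 and 0.973 CPM against 0.387 and 0.427 CPM. The Skp1-related ubiquitin ligase gene skr-5 stood at 0.834, 0.802 and 1.1 CPM against 0.387 and 0.349 CPM. Of 129 C-type lectin genes, 62 (48.06%) were higher in libraries 1 to 3 and 15 (11.63%) in libraries 4 and 5. The shares of all genes were 32.6% and 33.9%. Here library 5 stood alone: the list level, the mean centred log2 CPM of the members, was 0.23, 0.10, 0.07 and 0.08 in libraries 1 to 4 and -0.37 in library 5. The lectin gene clec-78 stood at 16.2, 18.8 and 17.1 CPM against 4.2 and 6.81 CPM, and clec-206 ran the other way with 0.508, 0.561 and 0.372 CPM against 3.55 and 1.28 CPM. Without library 5, 41 lectin genes were higher in library 4 than in libraries 1 to 3, in place of 15.

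Signalling peptides and nuclear receptors leaned the same way as the defence genes. Of 125 neuropeptide and insulin-like genes, 77 were higher in libraries 1 to 3 without overlap, 4 were higher in libraries 4 and 5, and the median log2 difference was 0.39. The insulin-like gene ins-19 (chromosome II, 3126037 to 3126441) had the widest gap of the 87 genes named by rule, 3.60 in log2. It stood at 3.42, 3.69 and 4.28 CPM in libraries 1 to 3 and at 0.246 and 0.097 CPM in libraries 4 and 5. Wild type ranged from 0.208 to 0.722 CPM and the double mutant from 0 to 0.310 CPM, so libraries 1 to 3 were above all 12 other libraries of the series. The insulin-like gene ins-7 stood at 1.99, 1.48 and 1.70 CPM against 0.422 and 0.407 CPM. Of 189 nuclear hormone receptor genes, 120 were higher in libraries 1 to 3 and 16 in libraries 4 and 5, and nhr-127 had 1.1, 1.4 and 1.22 CPM against 0.088 and 0.233 CPM. Of 63 neuron genes, 32 (50.79%) were higher in libraries 1 to 3 and 5 (7.94%) in libraries 4 and 5. Among 213 F-box genes of the fbxa and fbxb classes, 75 (35.21%) and 17 (7.98%) were higher in the first and second set, and 121 overlapped. Among 69 histone genes the numbers were 28 (40.58%) and 6 (8.70%), and 35 overlapped. The first share of the F-box genes was near the 32.6% of all genes, and the second shares of both lists were below the 33.9% of all genes. Their shares apart by 1.5-fold toward libraries 1 to 3 were 6.10% and 5.80%, near the 6.23% of all genes. Most histone genes belong to near-identical copies, and their counts are uncertain. Leaving out a library can only keep or raise such counts. Without library 5 the smaller side was 15 neuropeptide, 11 neuron and 32 F-box genes. Without library 4 it was 39 F-box and 11 histone genes, and without library 3 it was 15 histone genes. Without library 5 the F-box genes higher in libraries 1 to 3 were 123.

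Lists of metabolism and detoxification differed in how far they leaned to one side. Of 96 genes of fatty acid metabolism, 56 (58.33%) were higher in libraries 1 to 3 and 21 (21.88%) in libraries 4 and 5. The shares of all genes were 32.6% and 33.9%. In the insulin pathway list of 24 genes the numbers were 11 (45.83%) and 5 (20.83%). Its member icl-1, the glyoxylate cycle enzyme, stood at 313, 292 and 292 CPM against 132 and 162 CPM. Of 20 aspartyl and cathepsin proteases, 16 were higher in libraries 1 to 3 and none in libraries 4 and 5. The cathepsin B-like gene cpr-1 stood at 802, 642 and 680 CPM against 411 and 390 CPM, with all but library 1 below the wild-type range of 712 to 2021 CPM. Of 41 glutathione S-transferases, 22 (53.66%) were higher in libraries 1 to 3 and 5 (12.2%) in libraries 4 and 5. Among them gst-22 stood at 13.3, 14.1 and 14.2 CPM against 6.61 and 5.9 CPM. The UDP-glucuronosyltransferases split 24 to 19 of 62, and their 38.71% and 30.65% were near the 32.6% and 33.9% of all genes. The cytochrome P450 genes split 30 to 13 of 64, or 46.88% and 20.31%. Among the P450 genes, cyp-35A3, cyp-35A4, cyp-35A5 and cyp-35C1 were the 4 with a 1.5-fold gap toward libraries 4 and 5. The 10 osmotic stress genes were mixed. The gene gpdh-1, which makes glycerol, stood at 2.85, 2.69 and 2.42 CPM against 6.03 and 5.04 CPM. The inositol transporter gene hmit-1.1 stood at 1.2, 1.02 and 1.22 CPM against 10.3 and 2.27 CPM, with library 4 alone far up, and gem-4 ran the other way. Without library 5, the genes higher in library 4 were 11 glutathione S-transferases, 21 cytochrome P450 genes and 9 insulin pathway genes, and without library 3 the latter were 8.

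Genes of the cuticle also divided. Of 146 cuticle collagen genes, 81 were higher in libraries 4 and 5 without overlap, 45 of them by 1.5-fold, and 25 were higher in libraries 1 to 3, 12 of them by 1.5-fold. The list's level was -0.54, -0.91 and -0.94 in libraries 1 to 3, 0.74 in library 4 and -0.30 in library 5. Without library 5, 87 collagen genes had a 1.5-fold gap toward library 4, and without library 4 the number was 47 toward library 5. The 12 collagens higher in libraries 1 to 3 included dpy-2, dpy-3, dpy-7 and dpy-10, which build the circumferential furrows of the cuticle, named here after their values were seen. Of these dpy-7 stood at 8.95, 14.2 and 8.34 CPM against 3.09 and 3.63 CPM. Of 31 moulting cycle genes, 20 were higher in libraries 1 to 3, 2 were higher in libraries 4 and 5, and 9 were apart by 1.5-fold, all 9 toward libraries 1 to 3. The apical matrix gene noah-2 stood at 68.1, 76.1 and 66.7 CPM against 21.4 and 29.3 CPM. The lipocalin gene lpr-3 stood at 20.5, 25.4 and 24 CPM against 8.38 and 9.56 CPM. The gene acn-1, an ACE-like protein needed for moulting, stood at 17.7, 23.6 and 17.8 CPM against 8.35 and 7.39 CPM. The hypodermis and seam list split 12 to 7 of 22, or 54.55% and 31.82%, the second near the 33.9% of all genes. Its hedgehog-related gene wrt-10 stood at 15.1, 18.1 and 13.6 CPM against 4.92 and 6.0 CPM. Hedgehog-related and patched-related genes split 23 to 9 of 63, or 36.51% and 14.29% against 32.6% and 33.9% of all genes. In that list 8 were apart by 1.5-fold toward libraries 1 to 3 and 1, wrt-4, toward libraries 4 and 5, named after its values were seen. The patched-related gene ptr-15 of that list had 1.83, 2.21 and 2.05 CPM against 0.668 and 0.776 CPM. Without library 5 the split of hedgehog-related and patched-related genes was 27 to 20, and without library 4 it was 36 to 11. Without library 5, 8 moulting genes were higher in library 4 without overlap, 14 were apart by 1.5-fold toward libraries 1 to 3, and without library 3 the former were 4. Moulting genes and the larger group of collagens thus lay on opposite sides.

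Sperm genes lay higher in libraries 4 and 5. Of 78 tested sperm genes, 67 were higher there without overlap and 1, ssp-37, was higher in libraries 1 to 3. Because library 1 came close to library 5, 9 of them passed the 1.5-fold gap toward libraries 4 and 5, and without library 1 the number was 53 and without library 5 it was 69. The list level was 0.00, -0.72 and -0.52 in libraries 1 to 3 and 1.24 and 0.28 in libraries 4 and 5. The sperm-specific gene ssp-9 stood at 3.97, 2.89 and 2.98 CPM against 12.3 and 6.75 CPM, and ssp-35 at 1.02, 0.782 and 0.869 CPM against 3.64 and 1.84 CPM. Genes of the sperm families are near-identical copies in part, so single values are uncertain. Wild type spanned more than both sets, with a list level of -1.86 to -1.72 in libraries 1, 3 and 5 and of 0.43 and 0.71 in libraries 4 and 2.

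**Figure D5:**
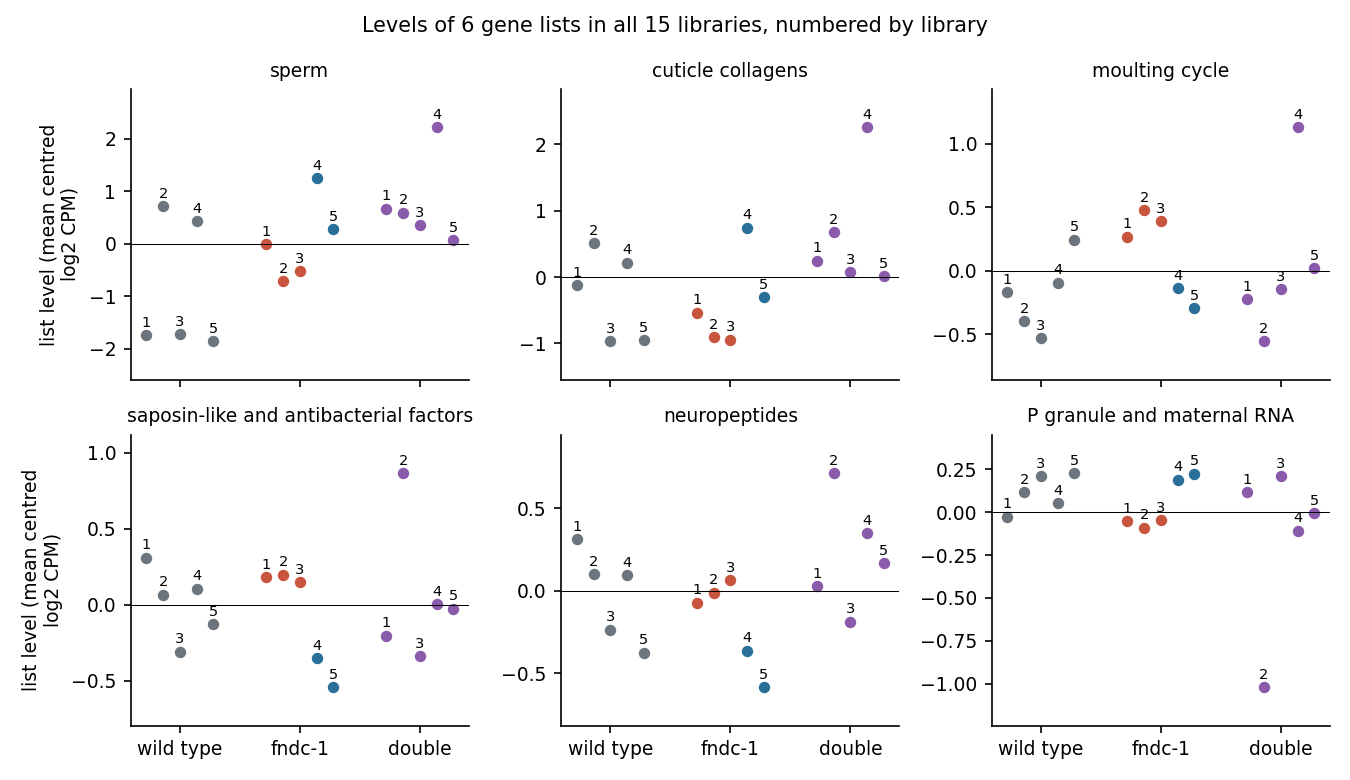
List level (mean over members of log2 CPM centred on all 15 libraries) of 6 gene lists in each library, numbered within its strain, with fndc-1 libraries 1 to 3 in red and 4 and 5 in blue. The sets are apart in all 6 lists, the sperm and collagen levels of library 4 lie above those of library 5, and double-mutant library 4 has the highest level of all in sperm, collagen and moulting genes.

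Lists of the germline, ribosome biogenesis, aminoacyl-tRNA synthetases and proteasome subunits were higher in libraries 4 and 5 by small steps in most members. Of 42 genes of germline stem cells and meiosis, 41 were higher in libraries 4 and 5 without overlap, all but syp-2, and none was apart by 1.5-fold. The numbers were 40 of 41 for P granule and maternal RNA genes, 19 of 21 for oocyte and eggshell genes, 41 of 44 for cell cycle and replication genes, and 29 of 34 for small RNA pathway genes. The translational repressor gene gld-1 stood at 1140.0, 1085 and 1132 CPM against 1349 and 1413 CPM. The germline helicase gene glh-1 stood at 488, 467 and 472 CPM against 616 and 655 CPM, and the yolk receptor gene rme-2 at 1009, 956 and 1017 CPM against 1290.0 and 1313 CPM. In each of them the distance between the sets was wider than the spread within either. The exceptions toward libraries 1 to 3 were cey-1 in the P granule list, perm-2 in the eggshell list, and sago-1 and sago-2 among small RNA genes. Genes named in this paragraph were singled out after their values were seen.

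All 23 ribosome biogenesis genes and 30 of 31 aminoacyl-tRNA synthetase genes, all but ears-2, were higher in libraries 4 and 5. The median log2 differences were -0.21 and -0.21. Of 33 proteasome subunit genes, 31 were higher in libraries 4 and 5 and the other 2, pbs-3 and rpn-12, overlapped, with a median of -0.13. The gene rpn-1, a scaffold subunit of the proteasome base, had the largest difference of the list, at 538, 510 and 544 CPM against 635 and 650 CPM. Most intracellular pathogen response genes lay on the opposite side from the proteasome subunits, and a link between these lists was not tested. The small differences toward libraries 4 and 5 depended on the scaling. With total counts alone, 17 of 33 proteasome genes, 17 of 23 ribosome biogenesis genes and 26 of 42 germline genes were higher there without overlap. The medians kept their sign, at -0.04, -0.11 and -0.09. The ribosomal proteins themselves were less uniform: 45 of 84 cytosolic ribosome genes and 48 of 70 mitochondrial ribosome genes were higher in libraries 4 and 5, and 8 and 1 in libraries 1 to 3. With total counts alone these numbers were 16 and 12 against 20 and 6, and the cytosolic median turned from -0.09 to 0.02.

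In each of the lists that follow, at most 1 member was apart by 1.5-fold. Of 17 genes of the mitochondrial unfolded protein response, the pathway that ATFS-1 controls, 13 were higher in libraries 4 and 5 and 3 in libraries 1 to 3, with a median log2 difference of -0.12. With total counts alone the numbers were 8 and 4 and the median was -0.03. Of 14 chaperonin and prefoldin genes, which fold newly made proteins, 10 (71.43%) were higher in libraries 4 and 5 and 2 (14.29%) in libraries 1 to 3. Their median was -0.24. Of 14 hypoxia response genes, 11 (78.57%) were higher in libraries 1 to 3 and 1 (7.14%) in libraries 4 and 5, with a median of 0.24. Of 6 vitellogenin (yolk protein) genes, 4 (66.67%) were higher in libraries 4 and 5 and none in libraries 1 to 3. Their median was -0.44. With total counts alone 2 vitellogenin genes were higher in libraries 4 and 5, and the median was -0.35. Genes of glycolysis, the TCA cycle and glyoxylate split 14 to 18 of 39, or 35.9% and 46.15%. The shares of all genes were 32.6% and 33.9%. With total counts alone this split was 22 to 13.

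The same genes varied among libraries of the other strains. Over the 937 genes higher in libraries 1 to 3, the median SD of log2 CPM among the 5 wild-type libraries was 0.504, and over the 262 genes higher in libraries 4 and 5 it was 1.18, against 0.226 for all genes tested. In the double mutant these values were 0.561, 1.1 and 0.366. The SDs were not matched for level. In the fndc-1 libraries the 937 and 262 genes had medians of 3.19 and 0.693 CPM, against 9.09 CPM for all genes tested. The part of low counts in their wider SDs was not tested. Of the 937 genes, 309 had a wild-type range that touched the range of libraries 1 to 3 only, 291 touched libraries 4 and 5 only, 248 touched both and 89 neither. Of the 262 genes, wild type touched both in 169. In wild-type library 5, 67.66% of the 937 genes lay above the midpoint between the sets, and in wild-type library 3 26.25% did. For the 262 genes, 83.97% lay above the midpoint in wild-type library 2 and 76.34% in library 4, against 29.01%, 19.08% and 14.89% in libraries 1, 3 and 5. Those 2 wild-type libraries were the ones with high sperm and collagen levels. The 262 genes include 45 cuticle collagens and 9 sperm genes, so these are partly the same values. In the double mutant, 97.71% of the 262 genes lay above the midpoint in library 4 and 51.15% in library 5. Double-mutant library 2 stood out among the 937 genes, with 82.18% above the midpoint, and in germline levels, where the P granule list was at -1.02.

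Few of the genes that divide the sets passed the test between strains. In the comparison of all fndc-1 and wild-type libraries, 281 of 15032 genes passed an adjusted p of 0.05 (1.87%), 178 higher (1.18%) and 103 lower (0.685%) in fndc-1. Of the 937 genes higher in libraries 1 to 3, 5 passed as higher (C49C3.9, C35B1.4, dod-24, F31C3.6 and C32H11.9) and 6 as lower, 1.17% in all. Of the 262 genes higher in libraries 4 and 5, 2 passed as higher (ugt-30 and C32H11.4). These genes were picked for a wide difference among fndc-1 libraries, which enters the error of this test, so nothing is read from the counts. Among the genes of the naming rule other than fndc-1, cpr-1 passed, with a log2 difference of -1.31 (SE 0.27, adjusted p = 0.022), and its call was lost when libraries 4 and 5, or libraries 1 to 3, were left out. The gene hsp-16.11 had a log2 difference of 2.57 (adjusted p = 0.059), and its level was above every wild-type library in all 5 fndc-1 libraries.

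The comparison with wild type was also run with each fndc-1 set on its own, though the sets were formed from these same counts. With libraries 1 to 3 only, 375 genes passed (2.46%), 305 higher (2.0%) and 70 lower (0.459%), and 205 of them were among the 281. With libraries 4 and 5 only, 49 genes passed (0.314%), 19 higher (0.122%) and 30 lower (0.192%), and 46 of them were among the 281. These counts rest on unequal numbers of libraries, 3 and 2, and share the same wild-type libraries. With libraries 1 to 3 only, 46 of the 937 genes passed as higher, a direction that the choice of the genes favours. Some immune effectors of the gut passed in each fit: 8 of 30 were higher in fndc-1 with all libraries, 10 with libraries 1 to 3 and 3 with libraries 4 and 5. Nothing is read from the difference between these counts, since the libraries were grouped by their values. The gene dct-17 was among those called in each fit, with 17.1, 19.6 and 20.6 CPM in libraries 1 to 3, 11.5 and 7.93 CPM in libraries 4 and 5, and 3.2 to 5.36 CPM in wild type. The libraries of fndc-1 thus lay above wild type in dct-17 in both sets. In the heat shock list of 29 genes, only unc-23 passed with all libraries (log2 0.69, SE 0.11, adjusted p = 0.0041, edgeR quasi-likelihood test). With libraries 1 to 3 only, unc-23, hsp-16.11 and hsp-43 passed as higher, and with libraries 4 and 5 only, none passed. Nothing is read from that difference either, for the same reason.

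The double mutant was compared with fndc-1 in the same way. All libraries together gave 147 genes past the test (0.978%), of which the double mutant was above fndc-1 in 111 (0.738%) and below it in 36 (0.239%). With fndc-1 libraries 1 to 3 only, 115 passed (0.755%), and with libraries 4 and 5 only, 60 passed (0.385%). Of the 937 genes, dod-24 passed as higher and F31C3.6 as lower with all libraries, and of the 262 genes T22B7.7, F35F10.5 and C32H11.4 passed as higher. The gene dod-24 stood at 48.8, 35.6 and 36.2 CPM in fndc-1 libraries 1 to 3, 23.5 and 20.1 CPM in libraries 4 and 5, 8.52 to 14.9 CPM in wild type and 56.9 to 116 CPM in the double mutant. In dod-24 no strain overlapped another, and the sets lay between wild type and the double mutant. The gene F31C3.6 stood at 19.9, 18.9 and 19.5 CPM against 10.7 and 12.2 CPM, above the 3.32 to 5.75 CPM of wild type and the 3.72 to 5.42 CPM of the double mutant. This comparison shares the fndc-1 libraries with the comparison against wild type, so the sets enter both.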

How the data were processed

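Per the submitters' processing notes, reads were processed with Trimmomatic 0.36, STAR 2.6.0c and Subread 1.6.1 with featureCounts on genome build WBcel235. The authors deposited raw counts per gene for 15 libraries, with no normalization. Per the labels' protocols, worms were cleared of OP50 bacteria and flash frozen, RNA was extracted with Trizol, and libraries used TruSeq kits, of which both an RNA and a Stranded mRNA version are named. For the strand setting, the annotation release and reads with several positions, nothing is given in the sources used here, so counts of overlapping, antisense or near-identical genes are uncertain.

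Of 20191 genes, 789 had no count and 15032 were kept by filterByExpr. Library totals ran from 46984106 to 61921123 counts. CPM used TMM factors, and log2 CPM used a prior count of 2. Strains were compared with the two-sided quasi-likelihood test of edgeR 4.0.16 (R 4.3.3) on all 15 libraries, with strain means, no covariate and Benjamini-Hochberg adjustment over all genes at 0.05. On simulated counts for fndc-1 against wild type over 15032 genes, changes were set only in genes with a wild-type mean above 1 CPM. Of these, 72% of 2-fold and 30% of 1.5-fold changes were recovered. Recovery in genes under 1 CPM was not measured.

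Between the sets no test was made. Each gene was described by its gap, and each list by its counts and its median over the 6 crossing library pairs. Lists are described where at least 3 members were apart by 1.5-fold. They are also described where at least 80% of at least 10 tested members were higher in the same set without overlap. These are 32 lists in all, and some others are given by counts and medians. The rule for named genes took the 12 widest gaps per direction, with a gene-class symbol and at least 5 CPM in each library of the higher set, up to 3 members by gap from each list with at least 3 apart, and fndc-1, 87 genes in all. The sets, the 53 gene lists (43 names were not in the table) and the rule were chosen with earlier results of these data known. Positions are from Ensembl release 115. A promoter motif search and GC content were planned but were not analysed here. Other settings were RLE, upper-quartile and total-count scaling, DESeq2 1.42.0, other filters, a prior count of 0.5, a replicate block and leaving out libraries.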

Additional observations from a re-analysis of the deposited data

Results flagged for a closer look

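Among the 5 fndc-1 libraries, 124 values (list levels and gene levels) were examined for a single library far from the others, by the gap to the nearest library relative to the whole range, and 10 stood apart. A rate of 1 in 20 by chance holds for independent values not chosen by these libraries, so it does not apply here. Most of the genes were named by their gap between these same libraries, and many are collagens that vary together. Gene levels were compared as CPM and list levels as log2, and on the CPM scale a high library stands out more readily. Library 5 was low in the C-type lectin level, at -0.3708 against 0.07369 to 0.2299 in the other 4 libraries.

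Library 4 was high in the other 9 values. In the cuticle collagens it stood at 28.41 CPM for dpy-13 against at most 6.616 in the others, at 29.44 CPM for dpy-4 against at most 6.247, at 52.56 CPM for col-7 against at most 16.57, and at 40.69 CPM for col-73 against at most 10.92. It stood at 26.14 CPM for col-138 against at most 7.897, at 18.6 CPM for rol-1 against at most 6.286, and at 48.71 CPM for col-161 against at most 8.634. The last 2 were the lectin gene clec-206, at 3.551 CPM against at most 1.281, and the inositol transporter gene hmit-1.1, at 10.34 CPM against at most 2.27. In the 7 collagen genes, clec-206 and hmit-1.1 alike, library 5 was the next highest, which the choice of these genes by their gap requires.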

How the results depend on the processing

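The number of genes that passed between fndc-1 and wild type, 281, was 779 with DESeq2, 49 without fndc-1 libraries 1, 2 and 3, and 146 to 736 with each library left out in turn. It moved by over 1.5 times when one of these was left out: wild-type libraries 2 (162), 4 (152) and 5 (185), fndc-1 libraries 1 (149), 2 (146) and 3 (157), and library 2 of the double mutant (736). It was 1116 when both libraries 2 and 4 of the double mutant were left out, a setting chosen after seeing the data. Between the double mutant and fndc-1, 147 became 363 with DESeq2 and 60 without fndc-1 libraries 1, 2 and 3. With each fndc-1 library left out in turn, genes 1.5-fold higher in fndc-1 libraries 1 to 3 numbered 1070 to 1626. Genes higher in libraries 4 and 5 then numbered 304 to 1347. Leaving out a library can only keep or raise these numbers. With a filter of 1 CPM in 5 libraries, genes higher in libraries 4 and 5 numbered 116. The causes were not tested, except that leaving out libraries leaves fewer samples.

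The numbers of the libraries were not taken to pair them, since same-numbered libraries did not all correlate. With the replicate number as a block, 155 genes passed between fndc-1 and wild type and 119 between the double mutant and fndc-1. Deviations of same-numbered libraries correlated at -0.591 to 0.43 between wild type and fndc-1 and at -0.19 to 0.664 between fndc-1 and the double mutant, and at -0.129 to 0.539 between wild type and the double mutant, and 1, 3 and 4 of 10 libraries correlated best with their own number. Number 4 was the highest of the same-numbered pairs in each (0.43, 0.664 and 0.539).

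The median difference of the heat shock list, near 0, changed sign with upper-quartile factors (0.04245), total counts (0.09079), and no filter (0.04565), and ran from -0.04245 to 0.001011 with each fndc-1 library left out in turn. That of the osmotic stress list did so with the 1 CPM filter (-0.04826). The medians of the other described lists kept their sign. Over the 32 described lists, 248 values under other settings moved by less than the spread within libraries 1 to 3, 99 by more and 5 changed sign. Outside the described lists more medians changed sign. With total counts, that of glycolysis, TCA cycle and glyoxylate genes turned from -0.03 to 0.06, and that of cytosolic ribosome genes from -0.09 to 0.02. The call of cpr-1 against wild type was lost in 8 settings, and that of fndc-1 in none of those run. Low counts limit genes under 1 CPM.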
